A study of Mus musculus with 6 samples.

Results

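Ephrin signalling and the identity of arteries and veins were followed through 10 genes, taken by symbol from the 55487 genes of the table. They are the ephrin ligands Efnb2, Efnb1 and Efna1, the Eph receptors Ephb4, Epha2 and Epha4, the connexins Gja4 and Gja5, the kinase Bmx and the transcription factor Nr2f2. The rule used their symbols and no measured value. RNA was sequenced from vascular endothelial cells (VECs) sorted from mouse retinas at postnatal day 7.5 (P7.5). The 3 Bmal1;CKO libraries came from animals with both copies of the clock gene Bmal1 floxed (Bmal1 FL/FL) beside tdTomato FL/+ and Pdgf-icreER, and the 3 control libraries from tdTomato FL/+; Pdgf-icreER animals without a floxed Bmal1. Both groups carried the tamoxifen-inducible Cre of the Pdgf-icreER transgene, which also expresses GFP, and the Cre-dependent tdTomato reporter, on a C57BL/6 J background. Tamoxifen was given to all pups between P0.5 and P2.5, and cells positive for both GFP and tdTomato were sorted. Libraries are called by the numbers of their columns, where control is 1 to 3 and Bmal1;CKO is 4 to 6. These numbers could not be matched to single animals.

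Ephrins are membrane-bound ligands, and they and their Eph receptors signal in both directions where 2 cells touch. In the growing retinal vasculature, ephrin-B2 (Efnb2) marks arterial endothelium and its receptor EphB4 (Ephb4) marks veins, and this pair keeps the 2 territories apart. Gja4 and Gja5 encode gap junction proteins that join arterial endothelial cells. Bmx is a TEC family kinase of arterial endothelium, and Nr2f2 encodes COUP-TFII, a nuclear receptor that holds Notch signalling down in veins. Outside the vessels, ephrins and Eph receptors are also made by retinal neurons, where they guide axons.

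BMAL1 and CLOCK bind the E-box CACGTG as a dimer. The RefSeq promoter windows of GRCm38.p6, 250 bases before to 50 after a start site, matched all 10 genes in 11 windows. The letters CACGTG, which are the same on both strands, were in 0 of the 11 windows and in 7.15% of all 32851 windows. This says only that these letters are not in those windows. The looser form CANNTG, of which CACGTG is a case, was in 66.2% of all windows when the 250 bases before the start were searched. For the ligand and receptor that mark arteries and veins, those 250 bases are given 5′ to 3′ on the strand of the gene, with CANNTG in capitals. Each holds 1 match, and neither is CACGTG. The first lies at chr8:8661243-8661492 on the reverse strand and the second at chr5:137349859-137350108 on the forward strand.
Efnb2: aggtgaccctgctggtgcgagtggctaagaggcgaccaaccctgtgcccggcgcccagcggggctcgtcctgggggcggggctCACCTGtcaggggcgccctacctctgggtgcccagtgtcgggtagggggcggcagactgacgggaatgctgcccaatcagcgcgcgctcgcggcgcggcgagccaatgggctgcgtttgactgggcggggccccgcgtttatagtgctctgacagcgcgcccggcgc
Ephb4: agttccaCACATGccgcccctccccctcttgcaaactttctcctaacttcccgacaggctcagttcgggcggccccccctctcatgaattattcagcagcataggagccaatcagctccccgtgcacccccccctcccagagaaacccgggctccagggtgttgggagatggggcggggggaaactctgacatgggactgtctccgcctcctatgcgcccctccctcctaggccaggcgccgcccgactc

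Bmal1, listed as Arntl, had 1700.4, 3489 and 2928 normalized counts (reads divided by the size factor of the library) in the control libraries and 1779, 2747 and 2415 in the Bmal1;CKO libraries. The groups overlapped. A gene total counts reads of all exons and does not check the loss of the floxed part. By droplet digital PCR on sorted endothelial cells of these genotypes, the study reported significantly less Bmal1 transcript in the mutant. The libraries held between 71145068 and 104017800 reads on genes. The libraries also held RNA of other retinal cell types in unequal amounts. Every library held at least 10 reads of each of the 14 endothelial and 9 microglial markers. The endothelial markers summed to 203675 to 397380 normalized counts in control and to 122419 to 264666 in Bmal1;CKO, with control library 1 at the top and Bmal1;CKO library 5 at the bottom. Those of microglia, which are not endothelial, summed to 1386180 to 4103350 and 2013410 to 3985840. Müller glia markers had the largest sums, 4045110 to 16664800 with control library 1 at the top and 7380440 to 13569600. A few of these 8 genes made up most of that sum. The median Müller glia marker was at 8289 to 11515 normalized counts per library, against 55377.5 to 118104 for the microglial markers. The rod markers, at 743627 to 978067 and 487933 to 905095, also exceeded the endothelial sum in every library. Control library 1 stood apart from the rest, with Pearson coefficients across genes of 0.791 to 0.833 against 0.853 to 0.944 for all other pairs. The 9 pericyte and mural markers summed to 2640.4 to 46351 in control, the highest sum being that of control library 3, and to 4192 to 7712 in Bmal1;CKO, and 3 of them were at 0 in at least 1 library. Ganglion cell markers summed to 7094 to 17446 and 8061 to 15787.5, with 3 of 8 at 0 in at least 1 library, and the astrocyte markers to 522 to 6459.8 and 1675 to 2975, with control library 1 the lowest in both lists. The part of these cells in the values below was not tested.

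None of the 10 genes differed between Bmal1;CKO and control beyond the spread between libraries. All 10 passed the filter of at least 10 reads in at least 3 libraries, and in 9 of them, all but Gja5, every library held at least 10 reads. The fitted change was above 0 in 4 of them and below 0 in 6, where 56.6% and 43.4% of all tested genes were above and below 0. The median log2 fold change was -0.074, against 0.11 over the 20459 genes tested. By limma-trend, a linear model on log2(normalized count + 1) that shares the estimate of the variance across genes, 0 of the 10 had an adjusted p under 0.05, and their adjusted p ran from 0.883 to 0.990. At an unadjusted p under 0.05 there were also 0 of 10, where 4.92% of all tested genes passed (3.17% higher and 1.75% lower in Bmal1;CKO). The groups did not overlap in 0 of the 10 genes, against 11.2% of all tested genes (6.62% higher and 4.54% lower). Over the whole table limma-trend called 0 genes at an adjusted p under 0.05 (0%) and 1007 at an unadjusted p under 0.05. edgeR's quasi-likelihood test and limma-voom called 0 as well, and DESeq2 called 67, of which 0 were among the 10. In these bulk libraries, fewer cells of a type and less RNA per cell cannot be told apart. Nothing in the labels says whether the 3 libraries of a group came from separate litters, and the p-values measure only the spread between these libraries.

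**Figure D1:**
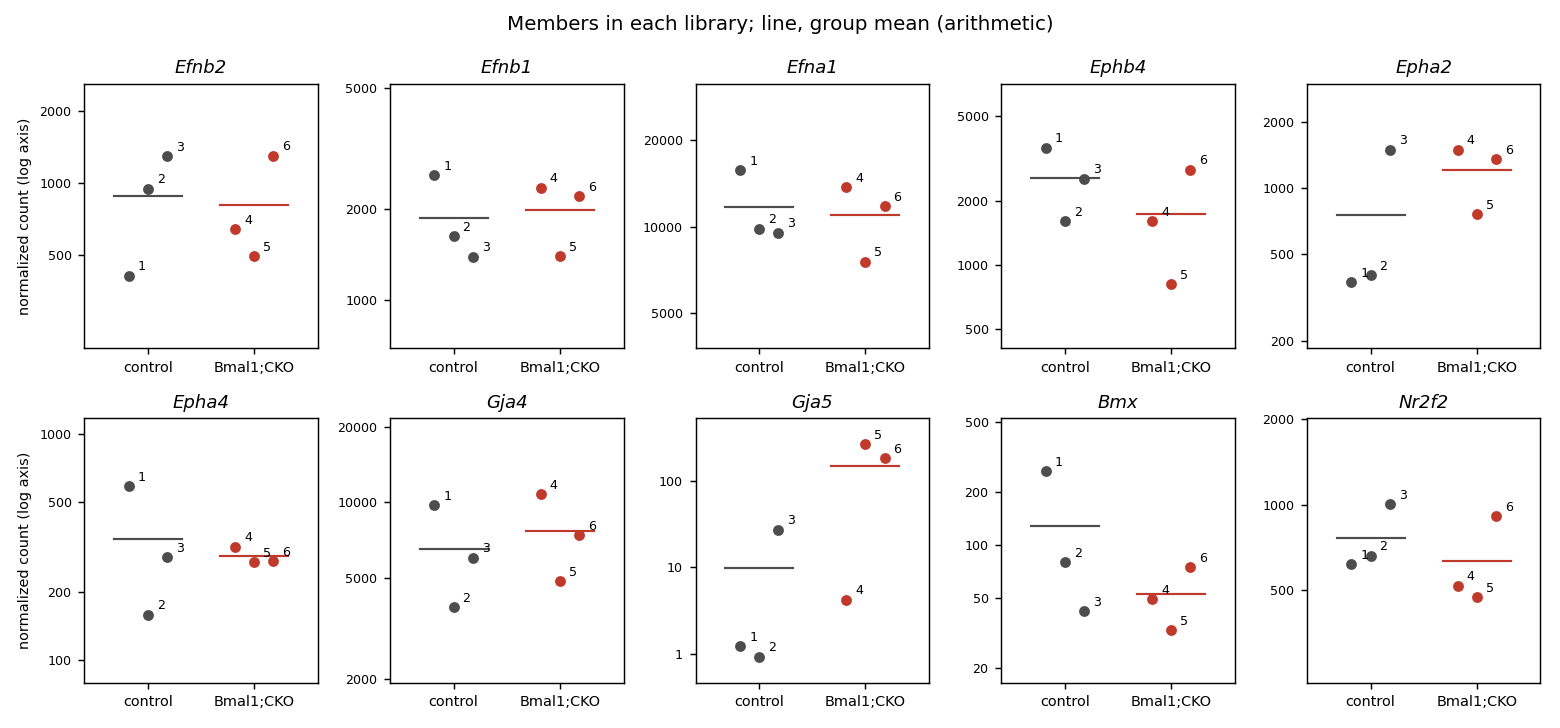
Normalized count (log axis) of each of the 10 genes in control libraries 1 to 3 (grey) and Bmal1;CKO libraries 4 to 6 (red), with a line at the mean of each group. In every panel the values of the groups overlap, and Gja5 has the widest range, from 0.928 to 263 normalized counts.

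The transmembrane ligand Efnb2 (ENSMUSG00000001300) lies on the reverse strand of chromosome 8 of GRCm38, from 8617434 to 8661242. It had 409.7, 946 and 1292 normalized counts in control libraries 1 to 3 and 643, 495 and 1297 in Bmal1;CKO libraries 4 to 6. The highest values of both groups lay side by side, and the lowest value of all was that of control library 1. The means were 882 ± 444 and 811 ± 427 (SD, n = 3 each), and the fitted log2 change was -0.09 (standard error 0.58, 95% interval -1.44 to 1.25, limma-trend adjusted p = 0.979). The interval therefore runs from 0.368 to 2.39 times the control level. The direction of the change was not stable: the change was above 0 when control library 2 or 3 or Bmal1;CKO library 4 or 5 was left out, up to 0.26 without control library 3, and was -0.57 without control library 1.

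Efnb1 (ENSMUSG00000031217, chromosome X, 99136130 to 99148991) encodes ephrin-B1, a close relative of ephrin-B2 that retinal neurons and capillaries also make. It had 2583, 1623 and 1393 normalized counts in control and 2347, 1395 and 2203 in Bmal1;CKO. The values of the groups were interleaved, with means of 1866 ± 631 and 1982 ± 513 (SD, n = 3 each). The fitted log2 change was 0.10 (standard error 0.36, 95% interval -0.75 to 0.95, limma-trend adjusted p = 0.961), but -0.084 without control library 3 and -0.039 without Bmal1;CKO library 4. Efna1 (ENSMUSG00000027954, chromosome 3, 89271733 to 89281142) encodes ephrin-A1, which is held in the membrane by a lipid anchor and is induced by inflammatory cytokines in endothelium. It had 15724, 9822 and 9524 normalized counts in control and 13688, 7552 and 11764 in Bmal1;CKO. Its log2 fold change of -0.09 had the narrowest interval of the 10 genes, from -0.85 to 0.66 (standard error 0.32, limma-trend adjusted p = 0.960), which is 0.557 to 1.58 times the control level. It was 0.14 without control library 1 and 0.16 without Bmal1;CKO library 5.

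Ephb4 (ENSMUSG00000029710, chromosome 5, 137350109 to 137378669), the venous receptor of ephrin-B2, had 3557, 1606 and 2544 normalized counts in control and 1605, 814 and 2798 in Bmal1;CKO. Bmal1;CKO library 5 was the lowest and control library 1 the highest, as they were for the summed endothelial markers. The means were 2569 ± 976 and 1739 ± 999 (SD, n = 3 each), and the fitted log2 change was -0.66 (standard error 0.51, 95% interval -1.85 to 0.52, limma-trend adjusted p = 0.883). With 1 library left out it ran from -1.09 (without Bmal1;CKO library 6) to -0.20 (without Bmal1;CKO library 5). Epha2 (ENSMUSG00000006445, chromosome 4, 141301240 to 141329384), a receptor of ephrin-A1, had 372, 401 and 1497 normalized counts in control and 1502, 762 and 1357 in Bmal1;CKO. Control libraries 1 and 2 lay below every other library, and control library 3 lay among the Bmal1;CKO libraries. The means were 756 ± 641 and 1207 ± 392 (SD, n = 3 each), and the fitted log2 change was 0.93 (standard error 0.62, 95% interval -0.51 to 2.37, limma-trend adjusted p = 0.883). It was 1.58 without control library 3 (adjusted p = 0.283) and 0.58 without control library 1. Epha4 (ENSMUSG00000026235, chromosome 1, 77367185 to 77515088), a receptor of both ligand classes that is best known from neurons, had 586, 158 and 284 normalized counts in control and 316, 270.3 and 273 in Bmal1;CKO. The 3 Bmal1;CKO libraries lay close together, with a coefficient of variation of 8.98% against 64.2% in control. The fitted log2 change was -0.06 (standard error 0.64, limma-trend adjusted p = 0.990), but 0.43 without control library 1.

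The arterial connexin Gja4 (ENSMUSG00000050234, chromosome 4, 127311421 to 127314039) was abundant in every library. It had 9724, 3848 and 6042 normalized counts in control and 10771, 4857 and 7416 in Bmal1;CKO, and the groups were interleaved. The means were 6538 ± 2969 and 7681 ± 2966 (SD, n = 3 each), and the fitted log2 change was 0.26 (standard error 0.42, 95% interval -0.72 to 1.24, limma-trend adjusted p = 0.909), but -0.072 without control library 2 and -0.022 without Bmal1;CKO library 4. The other connexin was uneven. Gja5 (ENSMUSG00000057123, chromosome 3, 96904693 to 97077416) had 1 read in control library 1, 1 in control library 2 and 38 in control library 3. In Bmal1;CKO libraries 4, 5 and 6 it had 3, 304 and 220 reads. In normalized counts these are 1.23, 0.928 and 27.2 in control and 4.22, 263 and 181 in Bmal1;CKO. Bmal1;CKO libraries 5 and 6 were therefore above every control library, while Bmal1;CKO library 4 was below control library 3. The 95% Poisson intervals, which cover counting error only, were 0.870 to 12.3 normalized counts for Bmal1;CKO library 4 and 19.2 to 37.3 for control library 3, so counting error does not span the gap between them. The means were 9.77 ± 15.1 and 149 ± 132 (SD, n = 3 each). The log2 fold change of 3.67 (standard error 1.87, 95% interval -0.69 to 8.03) was the largest of the 10 genes in size, where limma-trend gave p = 0.0876 unadjusted and 0.883 adjusted (two-sided exact permutation test, p = 0.2, where 3 libraries against 3 allow no p below 0.1). It lay between 2.64 and 5.47 with 1 library left out and was above 0 in each case, but it was 2.45 with a pseudocount of 10. Of the exons of Gja5, 165 bases overlap those of Gpr89 on the opposite strand, which had 473 to 1185 reads, and the use of strand in the counting is not stated.

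The arterial kinase Bmx (ENSMUSG00000031377, chromosome X, 164192842 to 164258193) had 263, 79.8 and 42.2 normalized counts in control and 49.2, 32.8 and 75.0 in Bmal1;CKO. Control library 1 stood above the other libraries, and the remaining control libraries lay close to the range of Bmal1;CKO. The means were 128 ± 118 and 52.3 ± 21.2 (SD, n = 3 each), and the fitted log2 change was -0.95 (standard error 0.99, 95% interval -3.24 to 1.35, limma-trend adjusted p = 0.886), but -0.22 without control library 1 and -1.53 without control library 3. Nr2f2 (ENSMUSG00000030551, chromosome 7, 70351944 to 70366735), the venous transcription factor, had 615, 659.8 and 1005 normalized counts in control and 518, 472 and 909 in Bmal1;CKO. Bmal1;CKO libraries 4 and 5 were the lowest, and Bmal1;CKO library 6 was above control libraries 1 and 2. The means were 759.9 ± 213 and 633 ± 240.2 (SD, n = 3 each), and the fitted log2 change was -0.29 (standard error 0.45, 95% interval -1.34 to 0.75, limma-trend adjusted p = 0.908). It was -0.074 without control library 3 and -0.58 without Bmal1;CKO library 6. An antisense gene, B130024G19Rik, shares 643 exon bases with Nr2f2 and had 49 to 167 reads.

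**Figure D2:**
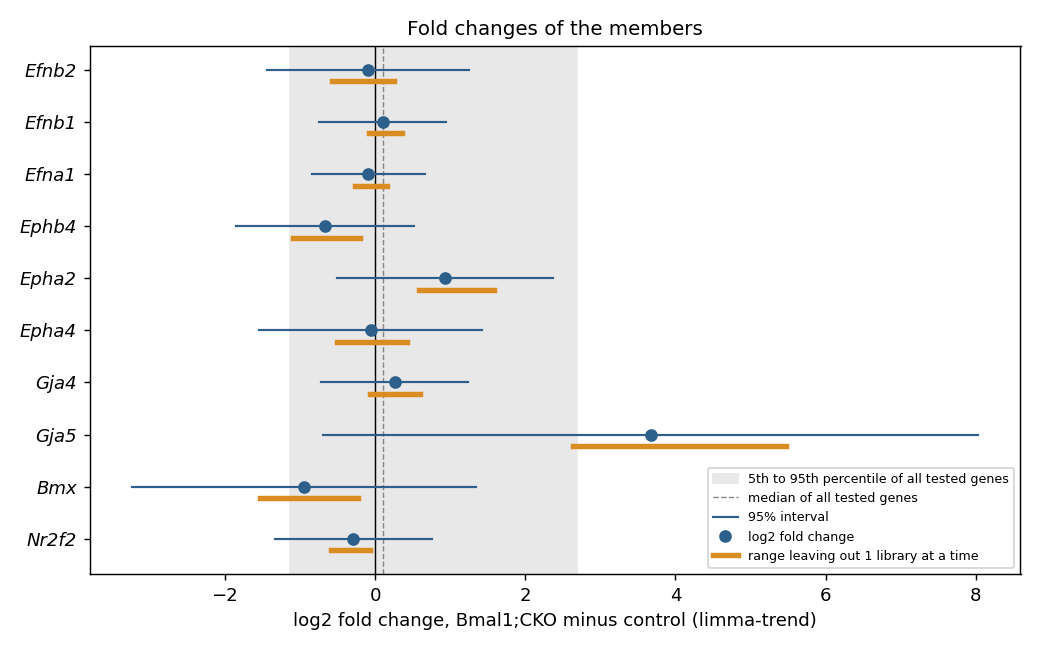
Log2 fold change of each gene (Bmal1;CKO minus control, limma-trend) with its 95% interval in blue and, in orange, the range when 1 library at a time was left out. The interval of every gene includes 0, and the grey band shows the 5th to 95th percentile of all tested genes, from -1.13 to 2.68.

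Levels were compared between genes only per length, as RPKM-like values (reads per kb of exon, scaled to 1000000 reads on genes). On that scale Efna1 was the most abundant, with a median of 73.4 over the 6 libraries, followed by Gja4 with 51.0. Gja4 stood 7.78 times above Efnb1 (6.55), and the ranges of this pair did not overlap. Ephb4 (5.90), Epha2 (2.56), Efnb2 (1.39), Nr2f2 (0.846), Epha4 (0.417), Bmx (0.249) and Gja5 (0.0355) came next in that order. Apart from Gja4 and Efnb1, the ranges of each neighbouring pair overlapped. Efnb1 was above Ephb4 in 4 of the 6 libraries, Epha4 above Bmx in 4 and Bmx above Gja5 in 4, so these neighbours did not differ beyond their spread. Efna1 was above Gja4 in 6 of the 6 libraries, and Ephb4 above Epha2 in 6 of 6.

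The balance of arterial and venous genes was then followed within each library, as the log2 ratio of 2 normalized counts, with 1 added to each. The scaling of libraries largely cancels in this ratio, but less so for counts near 0, such as those of Gja5. RNA of other cell types need not cancel, and its part in the ratios was not tested. Efnb2 over Ephb4, the ligand and its receptor, was -3.11, -0.76 and -0.98 in control and -1.32, -0.72 and -1.11 in Bmal1;CKO. Ephb4 exceeded Efnb2 in every library, in counts and per length, and control library 1 stood apart. The difference between the groups of 0.57 on the log2 scale was smaller than the pooled SD of 0.94 and was -0.18 without control library 1. Gja4 over Nr2f2 was 3.98, 2.54 and 2.59 in control and 4.38, 3.36 and 3.03 in Bmal1;CKO, a difference of 0.55 with a pooled SD of 0.76 that ran from 0.16 without Bmal1;CKO library 4 to 1.02 without control library 1. Efnb2 over Nr2f2 differed by 0.20 (pooled SD 0.45) and Bmx over Nr2f2 by -0.65 (pooled SD 1.19), and without control library 1 these were -0.14 and 0.20. Gja5 over Nr2f2 was -8.11, -8.42 and -5.16 in control and -6.63, -0.84 and -2.32 in Bmal1;CKO, a difference of 3.96 with a pooled SD of 2.48. Bmal1;CKO library 4 was again among the control libraries. Gja5 over Gja4, the ratio of the 2 connexins, differed by 3.41 (pooled SD 3.03), from 2.09 without Bmal1;CKO library 5 to 5.49 without Bmal1;CKO library 4. With a pseudocount of 10, Gja5 over Nr2f2 differed by 2.74 and Gja5 over Gja4 by 2.19. Of the 6 ratios, 0 separated the groups. The exact permutation p (two-sided) lay between 0.2 and 0.9, and the adjusted p over the 6 ratios was 0.9 for each. With 3 libraries against 3 this test allows no p below 0.1, so a p under 0.05 was not possible.

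**Figure D3:**
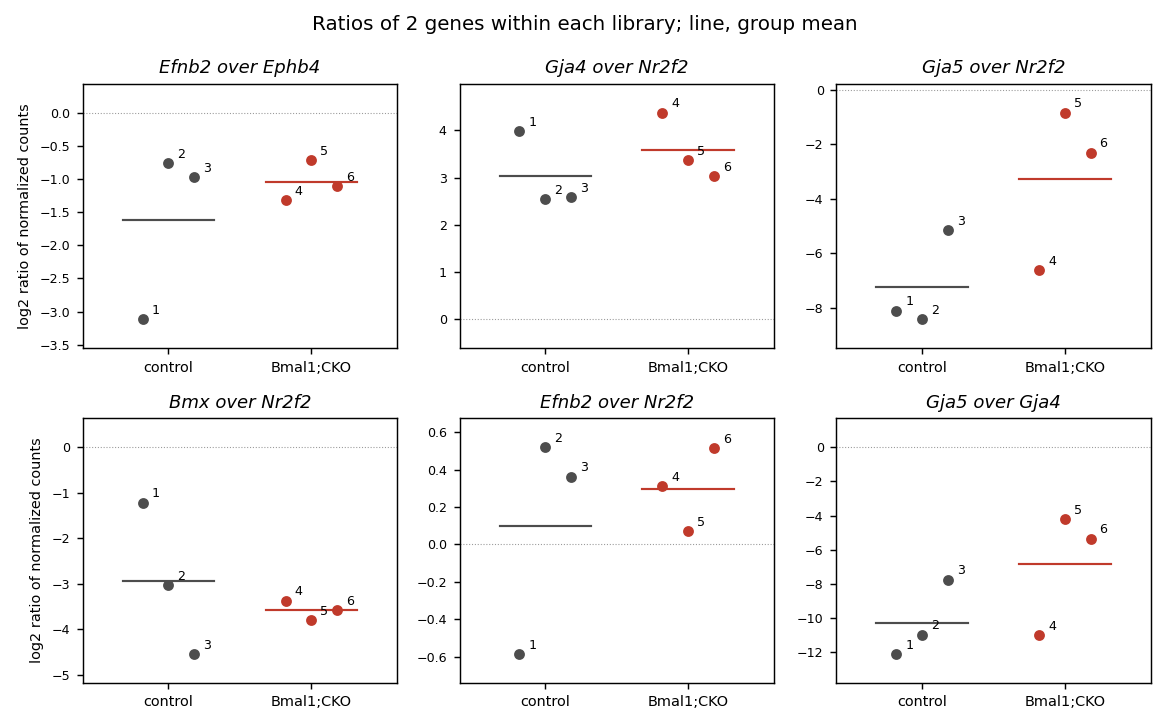
Log2 ratio of the normalized counts of 2 genes, with 1 added to each, in each control (grey) and Bmal1;CKO (red) library. Lines mark the group means, and a dotted line marks 0 (equal counts). The groups overlap in all 6 panels, and control library 1 lies apart in the panels of Efnb2.

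Each gene was also set against the median of the 14 endothelial markers of its own library (log2 scale). The endothelial markers themselves had log2 fold changes below 0 in 14 of 14 genes, with a median of -0.50, and 0 of them passed an unadjusted p of 0.05. Relative to them, 8 of the 10 genes were above 0 in Bmal1;CKO minus control and 2 below. This reference adds the same amount to the log2 change of every gene. The move to 8 genes above 0, from 4 without the reference, therefore reflects the shift of the endothelial markers. Gja4 was -0.41, -1.03 and -0.67 in control and 0.53, -0.02 and -0.70 in Bmal1;CKO, a difference of 0.64 with a pooled SD of 0.49 (0.35 to 0.96 with 1 library left out). Ephb4, whose counts followed the endothelial markers, had the smallest pooled SD, 0.25, and a difference of -0.28. With Cdh5 alone as the reference that difference was 0.035. Epha2 differed by 1.31 (pooled SD 0.92, 0.77 to 1.99 with 1 library left out), Efnb1 by 0.48 (0.35) and Gja5 by 4.06 (2.77). Nr2f2 differed by 0.09 and Efnb2 by 0.29, less than their pooled SDs of 0.45 and 0.83, and without control library 1 these were -0.23 and -0.38. Without Bmal1;CKO library 5 the difference of Nr2f2 was -0.044. The groups overlapped in all 10 genes, with two-sided exact permutation p between 0.2 and 1 and adjusted p between 0.6 and 1 over the 10 genes. Here too this test allows no p below 0.1, so its p-values alone could not have shown a difference at 0.05.

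**Figure D4:**
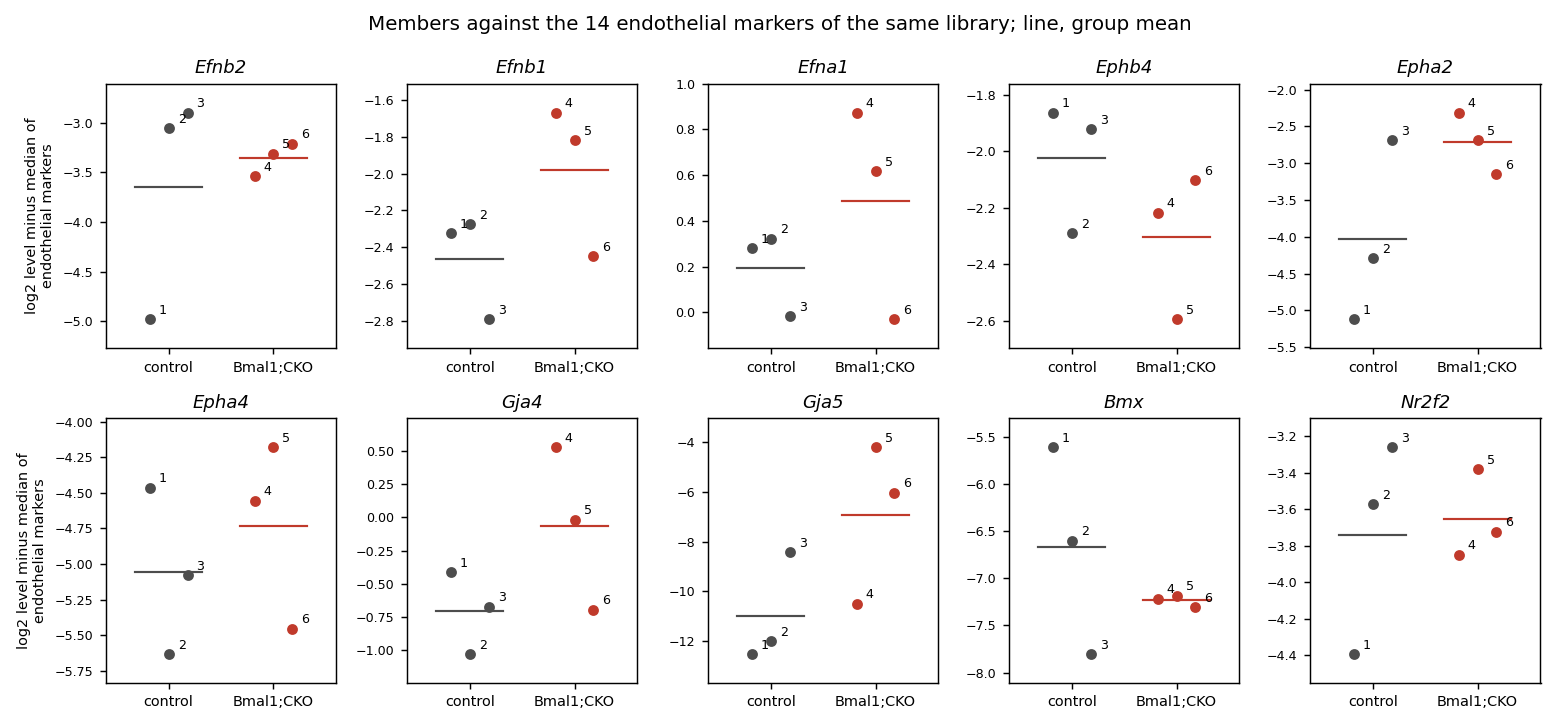
Level of each gene minus the median of the 14 endothelial markers of the same library (log2 scale) in control (grey) and Bmal1;CKO (red) libraries, with a line at the group mean. The groups overlap in every panel, and the Bmal1;CKO libraries of Bmx lie closest together (SD 0.063).

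The other genes of the pathway were followed in 6 lists of 62 genes, of which 57 passed the filter on reads. By limma-trend 0 of the 57 had an adjusted p under 0.05. At an unadjusted p under 0.05 there were 4 (7.02%, against 4.92% of all tested genes), and the groups did not overlap in 4 (7.02%, against 11.2%). Epha8, an ephrin-A receptor known from the developing nervous system, had 1522, 1929 and 3402.5 normalized counts in control and 5056, 6308 and 5631 in Bmal1;CKO. Each Bmal1;CKO value was above each control value, with a log2 fold change of 1.39 (standard error 0.34, unadjusted p = 0.00398, limma-trend adjusted p = 0.856). Adam10, the protease that sheds ephrins and Notch receptors, had 4785, 3249 and 4302 in control and 1781, 1788 and 2896 in Bmal1;CKO, without overlap and with a log2 fold change of -0.95 (standard error 0.31, limma-trend adjusted p = 0.883). Vwf, the von Willebrand factor of large vessels and veins, had 3188, 3298 and 5069 in control and 2240.5, 1174 and 2876 in Bmal1;CKO, again without overlap (log2 fold change -0.94, standard error 0.40, limma-trend adjusted p = 0.883). Ngef, which encodes ephexin-1, an exchange factor bound to EphA receptors, had 3.69, 18.6 and 173 in control and 347, 221 and 166 in Bmal1;CKO, where control library 3 lay within the Bmal1;CKO range. Its log2 fold change was 3.22 (standard error 1.35, unadjusted p = 0.046, limma-trend adjusted p = 0.883). Ngef had 3 reads in control library 1 and 20 in control library 2.

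The 5 other ephrins all had log2 fold changes above 0, with a median of 1.13, and 8 of the 10 other Eph receptors that were tested did so, with a median of 1.02. Both medians rested on control library 1, where Efnb3 and Efna3 had 0 reads and Epha1 and Epha3 had 1 read each. Epha1 also had 0 reads in control library 2. The log2 changes of Efnb3, Efna3, Epha1 and Epha3 were 2.79, 1.74, 3.45 and 2.23. Without control library 1 the medians were -0.51 and -0.077, and by edgeR with TMM over all 6 libraries they were 0.23 and 0.46. Control library 1 also had the lowest sums of cone, bipolar, amacrine, ganglion cell, astrocyte, mural and erythroid markers. It was not the lowest in rod markers, and it had the highest sums of endothelial, microglial and Müller glia markers. The part of these cells in these medians was not tested. Efna2, whose groups did not overlap, had 319.9, 1259 and 1131 normalized counts in control and 1778, 1707 and 1563.5 in Bmal1;CKO, where the lowest value by far was that of control library 1. The 15 signalling partners had 5 above and 10 below 0, with a median of -0.26. Of the 13 other arterial genes tested, 5 were above and 8 below 0, with a median of -0.076, or 0.06 without control library 1, and 0 at an unadjusted p under 0.05. Jag1, a Notch ligand, had a log2 fold change of -0.995 (95% interval -2.28 to 0.29), and Hey2, a Notch target of arterial endothelium, one of 1.74 (95% interval -3.22 to 6.70), with 0 reads in control library 1. Of the 7 other venous genes tested, 2 were above and 5 below 0, with a median of -0.94 that lay between -1.21 and -0.54 with 1 library left out. The endothelial markers, at -0.50, also had a median below 0, and their part in the venous values was not tested. Slc38a5, an amino acid transporter of venous and capillary endothelium, had 8778, 3177 and 4731 normalized counts in control and 2180.0, 996 and 4909.7 in Bmal1;CKO, so the groups overlapped. Flt4, the VEGF-C receptor, had a log2 fold change of -1.09 (95% interval -2.46 to 0.28). The relatives of the kinase, the connexins and the nuclear receptor had a median of 0.01 over 7 tested genes (-0.19 to 0.18 with 1 library left out), among them Gja1 (-0.52, 95% interval -1.69 to 0.65) and Gjd2 (1.28, 95% interval -4.01 to 6.57). Gjd2 had 1 read in control library 1, and its mean was lower in Bmal1;CKO (392 normalized counts) than in control (751).

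**Figure D5:**
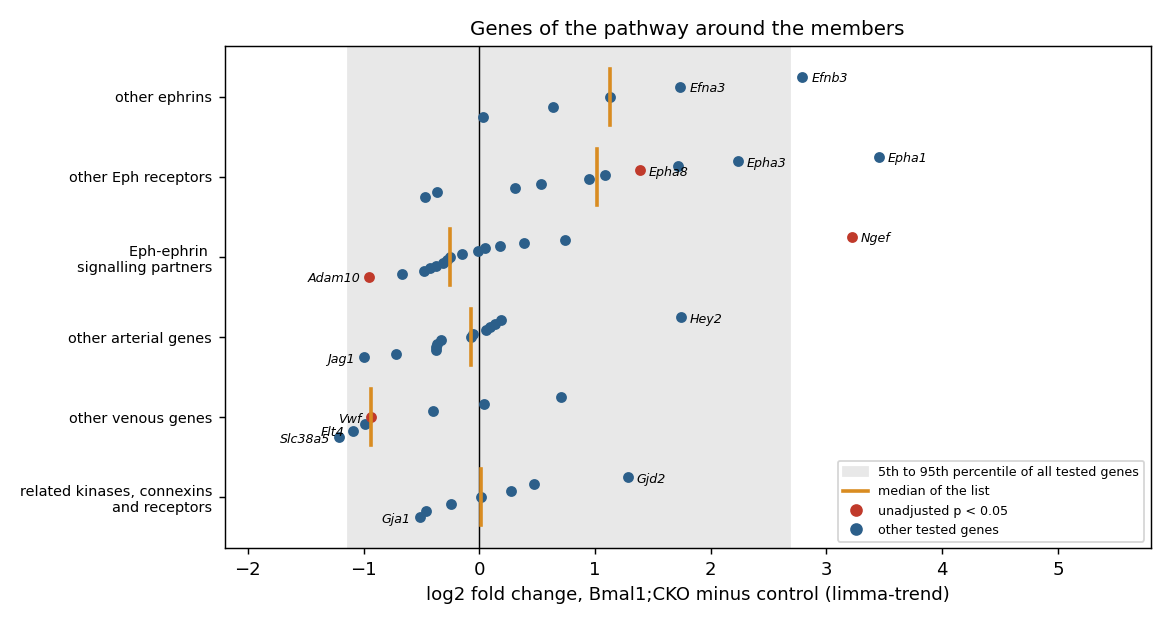
Log2 fold change (Bmal1;CKO minus control, limma-trend) of the 57 tested genes of 6 lists, with an orange line at the median of each list and the 5th to 95th percentile of all tested genes in grey. The 4 genes at an unadjusted p under 0.05, Epha8, Ngef, Adam10 and Vwf, are in red, and the venous list has a median of -0.94, with 5 of its 7 tested genes below 0.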

How the data were processed

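RNA of VECs from 3 control and 3 Bmal1;CKO samples was sequenced. Per the study's methods and the submitters' processing notes, the authors used FastQC for quality, Trimmomatic for trimming, Bowtie for alignment to mm10 (GRCm38), featureCounts for counts per gene and DESeq2 for the comparison. Tool versions and the use of strand are not given in the sources used here. The deposited values are a signal: each count over its size factor from DESeq2. The table also holds the authors' own comparison (mean, fold change, standard error, p-values), which was not used. The columns name the genotype only, so each was a replicate of its group. No 2 libraries were alike (Pearson coefficients across genes 0.791 to 0.944).

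Dividing by the smallest step gave whole reads for 100% of values (tolerance 0.05 reads). Genes reaching 10 reads in 3 or more libraries were tested with limma-trend on log2(normalized count + 1), genotype as the only term, with Benjamini-Hochberg adjustment over all of them (R 4.3.3, limma 3.58.1). The fold changes are on this scale, and the added 1 narrows differences between low counts. A single library with 0 reads can also make them larger than the ratio of the group means. Efnb3, with 0 reads in control library 1, had a log2 change of 2.79 where the Bmal1;CKO mean was 1.18 times the control mean. edgeR 4.0.16, limma-voom and DESeq2 1.42.0 were run on the recovered reads as alternatives, beside other pseudocounts, filters and each library left out. Ratios were compared with exact permutation tests. limma-trend, edgeR, limma-voom and DESeq2 were also run on simulated counts, made without a library that stood apart from the rest. The exact permutation tests were not. Exon lengths and coordinates came from GENCODE M21 (GRCm38), promoters from RefSeq. Named were the 10 genes and, of the 6 lists around them, each gene at an unadjusted p under 0.05 and per list the 2 of largest absolute log2 fold change. Efna2 and the antisense and overlapping genes were named after their values were seen. The 10 genes, lists and tests were chosen with earlier results of these data known. Erythroid, rod, cone, bipolar, amacrine and Müller glia markers were also listed, with median log2 fold changes of -1.00, -0.31, 0.64, -0.55, 0.57 and 0.48, those of microglia, ganglion cells, astrocytes and mural cells being 0.40, 0.11, 1.12 and 0.88.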

Additional observations from a re-analysis of the deposited data

How the results depend on the processing

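No paired analysis was possible because the columns carry numbers that the groups do not share. Over 14 alternatives (13 for Gja5, which the filter of 10 reads in every library removed), 0 of the 10 genes reached an adjusted p under 0.05, and under every alternative test, scaling, pseudocount and filter each kept its direction. With 1 library left out, the log2 fold changes ran from -0.57 to 0.26 for Efnb2, -0.084 to 0.36 for Efnb1, -0.27 to 0.16 for Efna1, -0.51 to 0.43 for Epha4 and -0.072 to 0.60 for Gja4, and the other 5 genes kept their direction. The differences of the log2 ratios ran from -0.18 to 1.00 for Efnb2 over Ephb4, -1.46 to 0.20 for Bmx over Nr2f2 and -0.14 to 0.41 for Efnb2 over Nr2f2. Relative to the endothelial markers they ran from -0.38 to 0.66 for Efnb2 and -0.23 to 0.33 for Nr2f2, and that of Ephb4 was 0.035 with Cdh5 alone as the reference. The cause of these turns was not tested.

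At an unadjusted p under 0.05, 0 of the 10 genes passed by limma-trend, 1 with DESeq2 (Gja5), 0 to 2 with 1 library left out (Gja5 and Epha2 without control library 3, Gja5 without Bmal1;CKO library 4). Over all genes, the count at an adjusted p under 0.05 was 67 with DESeq2, 1 with at least 1 read in total, 1 with at least 10 reads in every library and 0 to 6 with 1 library left out. At an unadjusted p under 0.05, limma-trend had 648 higher and 359 lower genes (64.3% higher). The higher genes were 389 with edgeR and TMM (50.1%), 400 with edgeR and the size factors (50.5%), 347 with at least 10 reads in every library (47.6%) and 269 to 1493 with 1 library left out. The lower genes were 678 with DESeq2 (44.0% higher) and 154 to 951 with 1 library left out. The median log2 fold change of all genes was 0.11 by limma-trend and -0.03 by edgeR. With 3 libraries a group, changes of the size that the stated intervals hold are not excluded.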
